A study of Homo sapiens with 8 samples.

Results

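The genes described here are 10 members of the AP-1 family of transcription factors, chosen by name: FOS, FOSB, FOSL1 and FOSL2, JUN, JUNB and JUND, BATF and BATF3, and MAFF. They are 10 of the 20033 protein-coding genes of the annotation. Every H3K27ac peak within a gene's body (GENCODE release 44, hg38) or 50 kb to either side of it was taken, which gave 141 of the 143733 intervals left after overlapping and touching peaks were merged across libraries. H3K27ac was profiled by chromatin immunoprecipitation and sequencing (ChIP-seq) in HCEC-1CT cells, human colonic epithelial cells immortalised with CDK4 and hTERT. The compared groups were 3 WT libraries and 3 CREBBP-KO libraries, the latter labelled CBP KO, and chromatin came from separate populations of each cell type. All cells carried doxycycline-inducible Cas9 and derived from 1 clone of such cells. The CREBBP-KO cells were made with a synthetic guide RNA and are described in the study's methods both as a monoclonal line and as a pool of clones. According to the methods, several clones were pooled per target against clonal effects, with parental subclones pooled to match. The ChIP-seq methods name the WT cells only as parental. The effect of the knockout and of clonal selection therefore cannot be told apart here.

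AP-1 is a dimer of basic leucine zipper proteins. JUN proteins pair with themselves or with FOS proteins, FOS proteins need a JUN partner to bind DNA, BATF proteins pair with JUN proteins, and MAFF is a small MAF protein without a transactivation domain of its own. The dimers bind the TPA response element or the related cyclic AMP response element TGACGTCA. The first is read here as TGANTCA, a pattern that allows any middle base and so is looser than the element itself. The dimers are known for the response of epithelial cells to growth factors, serum and stress, in which FOS, JUN, JUNB and FOSB are immediate early genes. CREBBP (CBP) and its paralog EP300 are acetyltransferases that deposit H3K27ac, a mark of active promoters and enhancers, and are textbook coactivators of JUN and FOS. The comparison of WT with CREBBP-KO asks where the mark differs at these genes when 1 of the pair of enzymes is lost.

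Values are those of the deposited peak lists, one list per library. The fold of a peak is its height over the local background, and its percentile is the share of peaks in the same list with a lower or equal fold. A shift is the difference between CREBBP-KO and WT in normal scores of the rank within a library, fitted with limma across all promoters or all intervals, and it is called at a Benjamini-Hochberg adjusted p under 0.05. WT lists held 86163 to 93567 peaks and CREBBP-KO lists 99008 to 111697, of which 37054 to 39028 and 39025 to 40774 had a fold of at least 5. Promoters as a class had higher folds in CREBBP-KO lists. The median over the 11837 promoters tested was 0.30 higher on the log2 scale, against 0.04 at intervals away from protein-coding starts, so a promoter shift states a gene's move relative to the other promoters. A peak at the start of CREBBP itself was present in all 6 libraries, with folds between 16.1 and 21.0 in WT and between 24.1 and 28.9 in CREBBP-KO. This does not check the knockout, which acts on the coding sequence. Of the colonic epithelial markers reported here, KRT18 had a promoter peak in 5 of 6 libraries, while CDX1, CDX2, VIL1, KRT8, KRT19, KRT20, EPCAM, CDH1, LGALS4 and HNF4A had none at the canonical start in any library, so the labelled cell type is not marked at most of these genes.

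The sequences that frame the main differences are given first. Promoter windows from RefSeq (GRCh38.p14, 250 bases before to 50 after the start) were found for 8 of the 10 genes, in 9 windows, and FOSL1 and BATF3 were not matched. Capitals mark TGANTCA or TGACGTCA, searched on both strands, neither of which overlaps the other. The windows of JUNB, whose promoter moved up the most, and of MAFF, whose promoter moved down the most among genes with a window, lie on the plus strand at chr19:12791236-12791535 and chr22:38201744-38202043.
JUNB promoter: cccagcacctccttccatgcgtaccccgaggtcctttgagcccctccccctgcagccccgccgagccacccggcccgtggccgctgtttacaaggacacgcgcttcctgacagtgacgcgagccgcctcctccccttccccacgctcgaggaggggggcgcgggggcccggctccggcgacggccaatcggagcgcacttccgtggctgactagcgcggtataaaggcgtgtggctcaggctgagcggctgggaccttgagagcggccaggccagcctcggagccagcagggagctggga
MAFF promoter: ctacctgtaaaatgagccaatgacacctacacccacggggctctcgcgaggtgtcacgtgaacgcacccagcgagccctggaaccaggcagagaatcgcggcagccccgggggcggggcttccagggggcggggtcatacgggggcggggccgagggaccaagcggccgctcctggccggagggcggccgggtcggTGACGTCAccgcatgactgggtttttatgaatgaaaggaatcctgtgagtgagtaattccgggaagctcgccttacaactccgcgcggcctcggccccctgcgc
The MAFF window holds TGACGTCA 54 bases before the start, a motif in 1.85% of the 35116 RefSeq windows, and the JUND window holds it 200 bases before the start. TGACTCA, a form of TGANTCA, was found in the FOSL2 window only, and TGANTCA in 7.71% of all windows. The serum response CArG box was found in none of the 9 windows and in 1.29% of all windows. No match says only that these letters are absent from the 300 bases read.

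The distal sequences below (hg38, plus strand) run 150 bases to either side of a summit. The first pair is the distal interval with the largest called shift downwards, 50.4 kb upstream of BATF3 (chr1:212750097-212750396, in an intron of NSL1), and upwards, 10.0 kb downstream of JUNB at the start of PRDX2 (chr19:12801385-12801684). The BATF3 interval was tested because all WT folds were at least 5, while not all CREBBP-KO folds were. This favours a downward shift, and its groups overlapped. The second pair was picked after the values were seen. It comprises the lowered interval 32.7 kb upstream of JUN (chr1:58816550-58816849), whose call held under every alternative, and the distal interval of highest percentile, 10.9 kb downstream of the FOSB start (chr19:45478722-45479021).
BATF3 distal: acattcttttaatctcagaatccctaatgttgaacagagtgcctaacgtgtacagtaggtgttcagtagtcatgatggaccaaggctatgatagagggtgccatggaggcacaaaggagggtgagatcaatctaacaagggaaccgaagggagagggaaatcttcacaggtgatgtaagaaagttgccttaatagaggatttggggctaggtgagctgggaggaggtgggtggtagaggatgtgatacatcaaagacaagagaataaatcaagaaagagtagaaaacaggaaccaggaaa
JUNB distal: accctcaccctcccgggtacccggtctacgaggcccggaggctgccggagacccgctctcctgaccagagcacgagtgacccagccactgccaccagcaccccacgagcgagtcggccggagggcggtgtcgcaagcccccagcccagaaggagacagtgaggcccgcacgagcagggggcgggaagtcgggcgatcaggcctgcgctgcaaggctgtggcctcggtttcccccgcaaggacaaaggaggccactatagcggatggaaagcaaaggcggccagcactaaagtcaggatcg
JUN distal: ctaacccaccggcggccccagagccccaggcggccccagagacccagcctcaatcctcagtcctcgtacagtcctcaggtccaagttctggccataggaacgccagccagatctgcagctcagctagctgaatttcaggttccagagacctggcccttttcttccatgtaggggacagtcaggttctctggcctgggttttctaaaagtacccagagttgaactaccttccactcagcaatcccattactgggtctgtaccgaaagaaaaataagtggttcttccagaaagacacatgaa
FOSB distal: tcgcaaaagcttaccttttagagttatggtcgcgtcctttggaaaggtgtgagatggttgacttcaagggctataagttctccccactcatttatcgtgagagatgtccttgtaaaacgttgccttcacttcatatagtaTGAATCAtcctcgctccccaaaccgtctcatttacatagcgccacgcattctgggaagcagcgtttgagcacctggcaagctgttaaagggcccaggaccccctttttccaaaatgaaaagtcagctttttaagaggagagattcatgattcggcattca
The FOSB sequence holds TGANTCA, in the form TGAATCA, within 10 bases of its summit and the other 3 sequences hold neither motif. Over the 42 distal intervals tested around the AP-1 genes, 9 held TGANTCA in such a window (21.4%), and it was in 8.81% of 34847 tested intervals on the main chromosomes and in 11.2% of those away from protein-coding starts. The 9 include intervals whose only match has A or T as the middle base. TGACGTCA was in 0 of the 42, and in 0.215% of all. Among intervals away from protein-coding starts, TGANTCA was in 9.29% of those called higher, 11.8% of those called lower and 11.5% of those not called, with a median GC content of 49.0%, 41.0% and 44.3%.

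The median percentile of the 9 AP-1 promoters tested was 96.3 over all libraries, beside 88.9 for all promoters tested. Of the 10 genes, 9 had a promoter peak in every library, a peak overlapping 1 kb to either side of the canonical start, and BATF had none in any library. This depends on the window. An interval just beyond it, with its summit 1.55 kb inside BATF, had a peak in every library (folds of 3.41 to 6.59) and was not tested. In WT the order by mean percentile was FOSL1 (99.3 ± 0.495, SD, n = 3), JUND (98.6 ± 0.248), MAFF (98.1 ± 0.740), FOSL2 (97.8 ± 0.548), FOS (95.7 ± 1.61), JUN (94.2 ± 0.779), JUNB (88.4 ± 2.29), FOSB (81.6 ± 2.43) and BATF3 (59.3 ± 5.46). The ranges of neighbours overlapped from FOSL1 down to JUN, whereas JUNB, FOSB and BATF3 each lay below the gene before it in all 3 libraries. The median of 88.9 covers both groups and is not a WT value, since promoter percentiles rose by a median of 3.51 in CREBBP-KO. The median promoter fold of the WT libraries was 10.9 to 11.8. All WT folds of FOSB and BATF3 lay below this, while those of JUNB were 13.2, 10.9 and 11.6. In CREBBP-KO the order was FOSL2 (98.3 ± 0.486), JUND (98.1 ± 0.893), FOS (97.3 ± 0.306), JUNB (96.0 ± 1.19), JUN (96.0 ± 0.921), FOSL1 (95.8 ± 1.52), MAFF (94.4 ± 1.35), FOSB (80.2 ± 1.35) and BATF3 (61.8 ± 6.85). FOSL1 thus went from the first to the sixth place, and neighbours overlapped down to MAFF, with FOSB and BATF3 again below in all libraries. Since whole populations were profiled, fewer cells with the mark and less of it per cell cannot be told apart.

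Relative to other promoters, 4 of the 9 tested genes were called (44.4%, beside 28.5% of all 11837 promoters). JUNB was called higher, beside 14.4% of all promoters, and FOSL1, MAFF and FOSB were called lower, beside 14.0%. The number called was 2 without WT replicate 3 or without CREBBP-KO replicate 3. The percentile ranges of the groups did not overlap for JUNB (higher) or for FOSL1 and MAFF (lower), beside 46.0% of all promoters in the first direction, 7.25% in the second and 53.2% in either. By fold, the ranges were separate and higher in CREBBP-KO for FOS, FOSL2, JUN and JUNB, as for 48.9% of all promoters, and separate and lower for FOSL1, as for 4.91%.

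**Figure D1:**
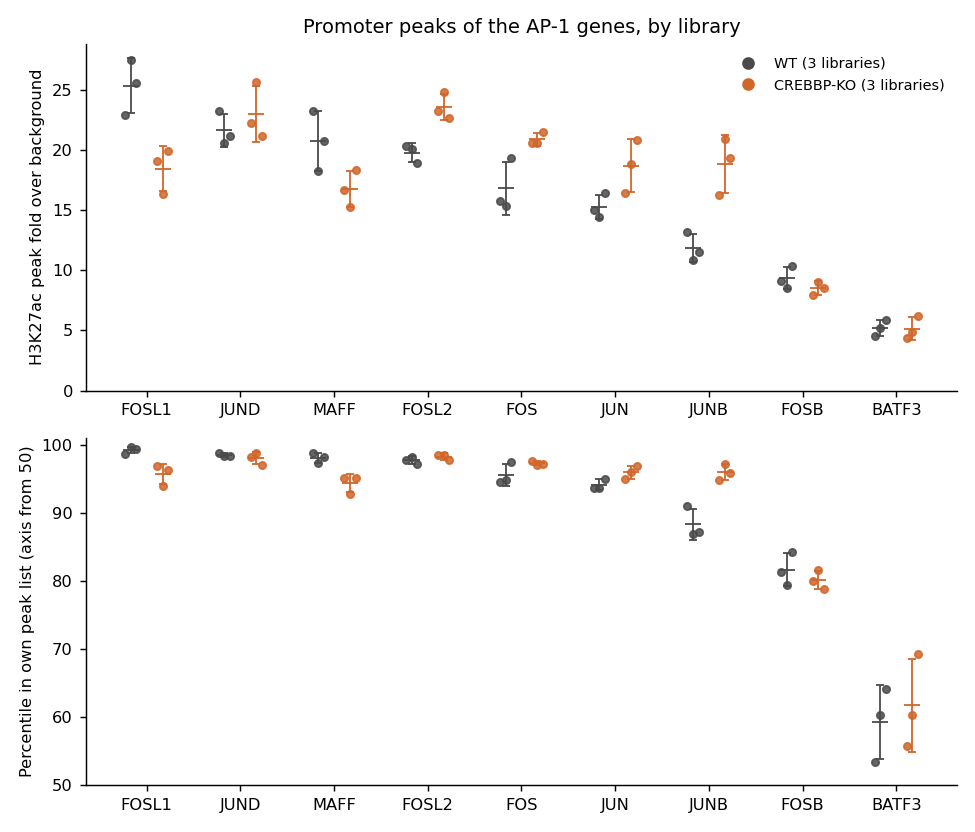
H3K27ac at the promoters of the 9 AP-1 genes with a promoter peak. The upper panel shows the peak fold and the lower panel its percentile within the same list (axis from 50), with 1 point per library, a dash for the mean and a bar for the SD of 3 libraries. FOSL1 has the highest WT mean and all 3 CREBBP-KO folds lie below all 3 WT folds, while all 3 JUNB folds in CREBBP-KO lie above those in WT.

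Among the FOS family, FOSL1 (FRA1, ENSG00000175592.9), a FOS protein without the carboxy-terminal transactivation domain of FOS, had the most pronounced change. Its promoter fold was 23.0, 27.6 and 25.6 in the WT libraries and 19.1, 16.4 and 20.0 in the CREBBP-KO libraries. The groups did not overlap, and all CREBBP-KO values were lower. The mean fell from 25.4 ± 2.30 to 18.5 ± 1.88 (a log2 difference of -0.46), and the shift was -1.34 (SE 0.214, limma adjusted p = 0.000479). The peak is broad, 13533 to 18728 bp, with its summit 330 to 569 bp inside the gene, and the merged interval at chr11:65886283-65905010 also covers the starts of CCDC85B and FIBP, so the 3 promoters share this value. The call held in all 18 alternatives, with a shift of -0.99 (adjusted p = 0.00028) when the interval was ranked among all intervals rather than among promoters.

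FOS (ENSG00000170345.10), the founding member and an immediate early gene, had promoter folds of 15.8, 15.4 and 19.4 in WT and of 20.6, 20.6 and 21.5 in CREBBP-KO. All CREBBP-KO folds were higher, by 0.32 on the log2 scale (16.8 ± 2.22 against 20.9 ± 0.549). This was close to the median rise of 0.30 at all promoters, and the shift was 0.03 (SE 0.186, adjusted p = 0.929). Fitted on log2 fold, without ranks, the FOS promoter was called higher (adjusted p = 0.0395), as were 43.1% of all promoters. The summit lay between -175 and -154 bp of the start in every library.

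FOSL2 (FRA2, ENSG00000075426.12), the closest relative of FOSL1, had folds of 20.4, 20.1 and 19.0 in WT and of 23.3, 24.9 and 22.7 in CREBBP-KO. The fold ranges were separate, but the shift was -0.09 (SE 0.184, adjusted p = 0.753), with a log2 difference in fold of 0.25. The difference between FOSL1 and FOSL2 was not tested.

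FOSB (ENSG00000125740.15), another immediate early gene, had the lowest promoter fold of the FOS family, 9.15, 8.56 and 10.4 in WT and 7.94, 9.07 and 8.53 in CREBBP-KO. The libraries of both groups overlapped in fold and in percentile. Its call as lower (shift -0.56, SE 0.178, adjusted p = 0.0278) was made relative to the other promoters, since its own log2 fold differed by only -0.13. The call was lost on log2 fold (adjusted p = 0.479), among intervals (shift -0.28, adjusted p = 0.314) and without WT replicate 1 (0.0662), WT replicate 3 (0.0843), CREBBP-KO replicate 1 (0.0711) or CREBBP-KO replicate 3 (0.077). The peak was narrower in CREBBP-KO (1978 to 2482 bp) than in WT (3060 to 3344 bp), with no overlap.

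Of the JUN family, JUNB (ENSG00000171223.6), a weaker activator than JUN and in many settings its antagonist, was called higher. Its promoter fold was 13.2, 10.9 and 11.6 in WT and 16.3, 21.0 and 19.3 in CREBBP-KO. All 3 CREBBP-KO values were above all 3 WT values. The mean rose from 11.9 ± 1.16 to 18.9 ± 2.39, a log2 difference of 0.66, with a shift of 0.58 (SE 0.200, adjusted p = 0.0389). The call was lost without WT replicate 2 (adjusted p = 0.107), WT replicate 3 (0.117), CREBBP-KO replicate 2 (0.152) or CREBBP-KO replicate 3 (0.0804), and it held on log2 fold (0.0007) and among intervals (0.0046). These 2 settings keep the rise of promoters as a class. On log2 fold 43.1% of all promoters were called higher, and intervals at protein-coding starts had a median shift of 0.22. The JUNB call was also lost when promoters were ranked by -log10 p (shift 0.21, adjusted p = 0.458). The peak was wider in CREBBP-KO (11508 to 14316 bp) than in WT (9136 to 10318 bp). Its summit lay 965, 1651 and 1593 bp inside the gene in WT and 999, 665 and 685 bp in CREBBP-KO. The folds were thus not all read at the same place.

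JUN (ENSG00000177606.9), the principal partner of FOS, had folds of 15.0, 14.5 and 16.4 in WT and of 16.5, 18.9 and 20.8 in CREBBP-KO. These ranges did not overlap by fold, narrowly, and overlapped by percentile. The shift was -0.01 (SE 0.183, adjusted p = 0.965), with a log2 fold difference of 0.29. JUND (ENSG00000130522.6), the most constitutively expressed of the JUN genes, had folds of 23.2, 20.6 and 21.2 in WT and of 22.3, 25.7 and 21.2 in CREBBP-KO. The groups overlapped, and the shift was -0.39 (SE 0.189, adjusted p = 0.137), while the log2 fold differed by 0.09, of opposite sign. What differed at JUND was the position of the highest point of its peak, which lay at -650, -809 and -627 bp relative to the start in WT and at 1506, 1488 and 1457 bp, inside the gene, in CREBBP-KO. The fold difference between these points is not given by the lists, which hold 1 summit for each peak, and the move was not tested.

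MAFF (ENSG00000185022.12), which pairs with FOS proteins as well as with cap'n'collar factors, had folds of 23.2, 18.3 and 20.8 in WT and of 16.7, 15.3 and 18.3 in CREBBP-KO. The highest CREBBP-KO fold was just above the lowest WT fold, and by percentile all CREBBP-KO libraries were lower. The mean fell from 20.8 ± 2.46 to 16.8 ± 1.52, a log2 difference of -0.31, with a shift of -1.02 (SE 0.192, adjusted p = 0.00141). On log2 fold the difference was not called (adjusted p = 0.0530), and it held in the other 17 alternatives. BATF3 (ENSG00000123685.9), a repressive partner of JUN known from dendritic cells, had a low promoter fold of 4.56, 5.24 and 5.84 in WT and 4.35, 4.86 and 6.20 in CREBBP-KO. The groups overlapped fully (shift -0.37, SE 0.209, adjusted p = 0.204). For BATF (ENSG00000156127.8), the nearest tested interval ended short of the promoter window, with its summit 1.94 kb upstream (chr14:75519720-75520954). Its folds were 6.24, 6.13 and 7.44 in WT and 3.92, 6.32 and 4.62 in CREBBP-KO, which overlapped, and it was called lower (shift -0.89, SE 0.320, adjusted p = 0.0318).

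Around the genes, the 141 intervals comprised 9 at the members' own promoters and 132 distal ones, of which 13 lay at the promoter of another protein-coding gene. Of the 132, 66 had a peak in all 6 libraries and 42 of these also had a fold of at least 5 in all 3 libraries of a genotype and were tested. In total 19 of the 42 were called (45.2%, beside 37.3% of all 34864 intervals tested). Higher were 7 (beside 18.6%) and lower 12 (beside 18.7%), and 13 of the 19 had separate percentile ranges. Of all 42, the ranges were separate and higher for 9 and separate and lower for 6, beside 34.2% and 15.2% of all intervals tested and 49.4% in either direction. Away from other genes' promoters, 4 of 33 were higher and 11 lower, beside 15.1% and 23.2% of intervals away from protein-coding starts. Some lowered intervals were tested only because WT passed the fold filter, which favours a lower call. These lie 36.3 and 5.87 kb upstream of FOS, 1.94 kb upstream of BATF and 50.4 kb upstream of BATF3. No raised interval passed through CREBBP-KO only. Without the filter 66 intervals were tested, with 8 called higher and 7 lower, and the share over all intervals was not computed. The split also depended on the scale. On log2 fold 10 were higher and 4 lower (beside 28.0% and 13.1% of all intervals), and ranked by -log10 p 1 was higher and 9 lower (beside 12.4% and 12.9%). Leaving out a library lowered the number called, to 12 without WT replicate 1, 8 without WT replicate 2, 12 without CREBBP-KO replicate 1, 11 without CREBBP-KO replicate 2 and 8 without CREBBP-KO replicate 3. The study's own read-based test used stricter cut-offs for fold and false discovery rate. It reported most H3K27ac peaks as unaffected, so the shares called here are of another measure.

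**Figure D2:**
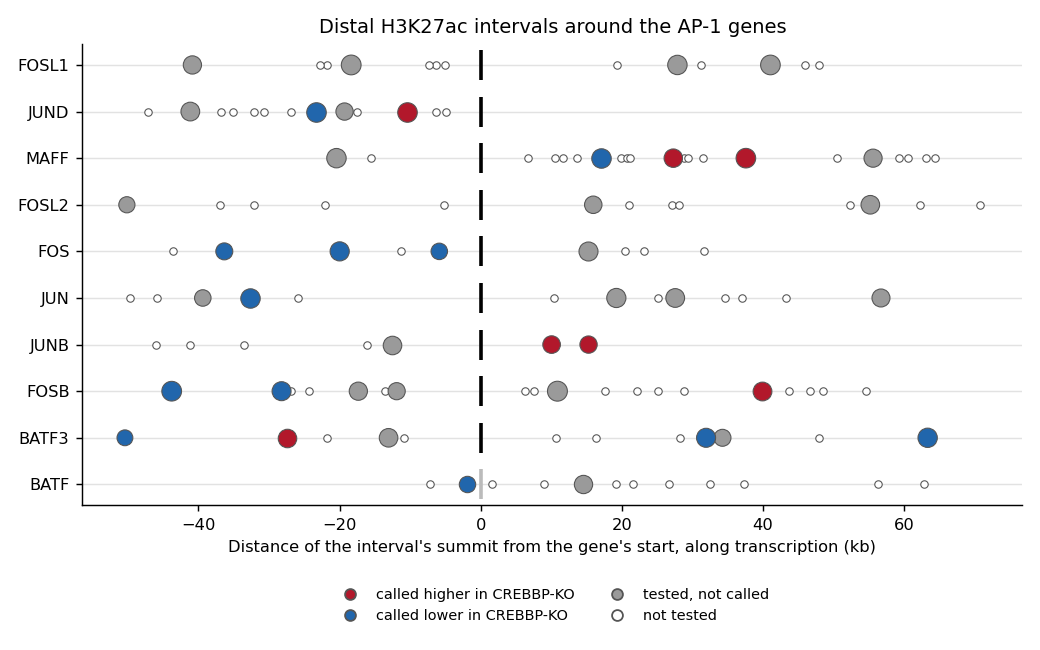
Position of the 132 distal H3K27ac intervals around each AP-1 gene, with the distance of the summit from the gene's start in kb along the direction of transcription. Large points are the 42 intervals tested (area grows with mean percentile), coloured by call, small open points were not tested, and the bar at 0 is the start (grey for BATF, which had no promoter peak). All 3 called intervals of FOS lie upstream and are lower, and those of JUNB lie downstream and are higher.

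Around FOS, 3 of 4 tested intervals, all upstream, were called lower and none higher. Of intervals away from protein-coding starts, 23.2% were called lower and 15.1% higher. The strongest, 20.0 kb upstream (chr14:75256715-75260291), had folds of 14.6, 15.2 and 14.5 in WT and of 13.2, 11.0 and 13.2 in CREBBP-KO. All CREBBP-KO values were lower, with a shift of -0.52 (SE 0.169, adjusted p = 0.0202). The call was lost without WT replicate 2 (0.0658) or CREBBP-KO replicate 2 (0.107), on log2 fold (0.143) and without the trend in limma (0.0560). The intervals 36.3 and 5.87 kb upstream, with mean folds of 7.26 ± 0.725 and 6.62 ± 0.384 in WT and 5.60 ± 1.06 and 4.95 ± 1.06 in CREBBP-KO, were called lower with overlapping percentiles (adjusted p = 0.0499 and 0.0255). Both passed the fold filter through WT only. The fourth interval, 15.2 kb downstream, was not called (12.7 ± 1.76 against 13.2 ± 2.20, adjusted p = 0.664). The FOS promoter was not called, as given above.

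Of the 5 tested intervals around JUN, 1 was called, beside 37.3% of all intervals tested. It lies 32.7 kb upstream of the start (chr1:58813535-58820531), in no protein-coding gene, and is the most strongly marked distal interval of JUN. Its folds were 17.6, 19.3 and 20.0 in WT and 14.0, 14.0 and 13.6 in CREBBP-KO. The groups were well apart, with means of 18.9 ± 1.24 and 13.9 ± 0.210 and a log2 difference of -0.45. The shift was -0.84 (SE 0.162, adjusted p = 0.000441), and this call held in all 13 alternatives. The fold at the JUN promoter, given above, was higher in all CREBBP-KO libraries. That log2 difference, 0.29, was close to the median rise of 0.30 at all promoters, and the JUN promoter was not called.

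Of the 3 tested intervals of JUNB, 2 were called. Both were higher and lie at the starts of neighbouring genes. Such intervals rose as a class, with 2700 of 9928 tested intervals at protein-coding starts called higher. Their median shift was 0.22, beside -0.089 away from such starts. At 10.0 kb downstream, at PRDX2 and THSD8 (chr19:12800552-12802194), folds were 6.58, 5.60 and 6.65 in WT and 9.61, 8.75 and 10.3 in CREBBP-KO (shift 0.78, SE 0.243, adjusted p = 0.0151). At 15.3 kb, at RNASEH2A (chr19:12806086-12807525), they were 6.14, 5.15 and 6.28 in WT and 9.87, 8.14 and 7.96 in CREBBP-KO (shift 0.77, SE 0.264, adjusted p = 0.0260). In both, every CREBBP-KO library was above every WT library. The first call was lost without WT replicate 2 (0.0595), CREBBP-KO replicate 1 (0.0532) or CREBBP-KO replicate 3 (0.0638), and the second without WT replicate 2 (0.1002) or CREBBP-KO replicate 1 (0.130). Both were lost when ranked by -log10 p (0.0588 and 0.123). The strongest distal interval of JUNB, 12.5 kb upstream inside HOOK2, had means of 10.5 ± 1.44 and 10.4 ± 1.14 and was not called (adjusted p = 0.610).

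JUND had 1 of 4 tested intervals called in each direction, beside 18.6% of all intervals called higher and 18.7% called lower. At 10.5 kb upstream (chr19:18291113-18294300) the folds were 14.5, 13.0 and 16.7 in WT and 23.8, 23.4 and 21.7 in CREBBP-KO. All CREBBP-KO folds were higher, and the mean rose from 14.7 ± 1.85 to 22.9 ± 1.12 (log2 difference 0.64), with a shift of 0.64 (SE 0.168, adjusted p = 0.00530). The call held with any library left out, but not when intervals were ranked by -log10 p (shift 0.06). At 23.4 kb upstream the mark was called lower with overlapping groups (18.6 ± 2.76 against 16.6 ± 2.18, adjusted p = 0.0345). A weak peak 17.5 kb upstream was listed in all 3 CREBBP-KO libraries and no WT library, as at 2.66% of all merged intervals, and one 4.95 kb upstream in all 3 WT libraries and no CREBBP-KO library, as at 1.08%.

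FOSB lies beside the most strongly marked distal interval of the family. At 10.9 kb downstream of its start and past its end (chr19:45477018-45479438), folds were 32.7, 26.4 and 27.9 in WT and 30.6, 33.1 and 25.2 in CREBBP-KO. The groups overlapped (shift -0.32, SE 0.204, adjusted p = 0.224, with a log2 fold difference of 0.03). At the ERCC1 promoter, 43.8 kb upstream, the mark was called lower (21.7 ± 1.88 against 19.1 ± 2.02, shift -0.56, adjusted p = 0.0103, 0.0586 without CREBBP-KO replicate 3 and 0.235 on log2 fold). At the VASP promoter, 39.9 kb downstream, it was called higher, from 10.5, 8.84 and 9.23 to 14.1, 16.1 and 14.3 (shift 0.64, SE 0.178, adjusted p = 0.00794, and 0.152 when ranked by -log10 p). An interval in ERCC1, 28.2 kb upstream, was also called lower (adjusted p = 0.0470). Of 9928 tested intervals at protein-coding starts, as at ERCC1 and VASP, 2700 were called higher and 745 lower.

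Of the 4 tested distal intervals of FOSL1, 0 were called by limma on ranks, with 1 at an unadjusted p under 0.05, beside the 37.3% of all intervals called, and 2 were called on log2 fold. The strongest, 18.3 kb upstream at C11orf68 and DRAP1 (chr11:65909877-65922009), had folds of 19.1, 19.2 and 17.5 in WT and of 20.3, 29.8 and 30.9 in CREBBP-KO. CREBBP-KO replicate 1 lay near WT and the other two well above (shift 0.48, SE 0.193, adjusted p = 0.0532, and 0.00674 without that library). For FOSL2, 0 of 3 were called on ranks or on log2 fold, with 0 at an unadjusted p under 0.05, and the strongest, 55.2 kb downstream, had means of 10.6 ± 2.20 and 11.0 ± 0.690 (adjusted p = 0.832).

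MAFF and BATF3 had calls in both directions. Of 5 tested intervals of MAFF, 2 were called higher and 1 lower, beside 18.6% and 18.7% of all intervals tested. For MAFF, the interval 17.1 kb downstream of the start (chr22:38216824-38221235) was called lower (17.4 ± 2.46 against 15.7 ± 0.366, shift -0.45, adjusted p = 0.0445). A pair inside TMEM184B, at 27.3 and 37.6 kb (chr22:38227785-38229692 and chr22:38235271-38245176), was called higher. Their folds rose from 8.69 ± 1.26 to 12.3 ± 1.13 (shift 0.53, adjusted p = 0.0471) and from 15.5 ± 0.774 to 21.7 ± 1.44 (shift 0.42, adjusted p = 0.0437). The call at 17.1 kb was lost without WT replicate 3 (0.1985) or any 1 CREBBP-KO library (0.0615 to 0.138), and on log2 fold (0.396). That at 27.3 kb was lost without WT replicate 1 (0.0760), WT replicate 2 (0.185) or any 1 CREBBP-KO library (0.0525 to 0.161), and that at 37.6 kb without WT replicate 1 (0.143), WT replicate 2 (0.0541), CREBBP-KO replicate 1 (0.115) or CREBBP-KO replicate 3 (0.138). All 3 were also lost without the trend (0.113, 0.0762 and 0.104), and both raised ones by -log10 p (0.0545 and 0.301).

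For BATF3, 3 of 6 tested intervals were called lower and 1 higher, beside 23.2% and 15.1% of intervals away from protein-coding starts. At 31.9 kb downstream of the start (chr1:212666643-212669063) the folds were 14.2, 15.2 and 15.7 in WT and 11.3, 10.7 and 11.4 in CREBBP-KO, with no overlap (shift -0.74, SE 0.167, adjusted p = 0.00171). This call held with any library left out. At 63.3 kb the fall was from 16.4 ± 1.26 to 13.9 ± 1.53 (adjusted p = 0.0177), and the call was lost without WT replicate 1 (0.0590), CREBBP-KO replicate 2 (0.0601) or CREBBP-KO replicate 3 (0.0986), on log2 fold (0.147), by -log10 p (0.0687) and without the trend (0.0585). The interval 27.4 kb upstream, in an exon of NSL1, was called higher (8.86 ± 1.52 against 12.9 ± 0.870, adjusted p = 0.0372). That call was lost without WT replicate 1 (0.183) or any 1 CREBBP-KO library (0.0505 to 0.129), and without the trend (0.0721). The interval 50.4 kb upstream, whose sequence is given above, had folds of 6.43, 6.64 and 5.17 in WT and 5.52, 4.01 and 3.53 in CREBBP-KO, which overlapped (shift -1.01, SE 0.328, adjusted p = 0.0196). It passed the fold filter through WT only. For BATF, the strongest interval was intronic, 14.6 kb into the gene, with means of 9.49 ± 0.510 and 9.99 ± 3.07 (adjusted p = 0.701).

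**Figure D3:**
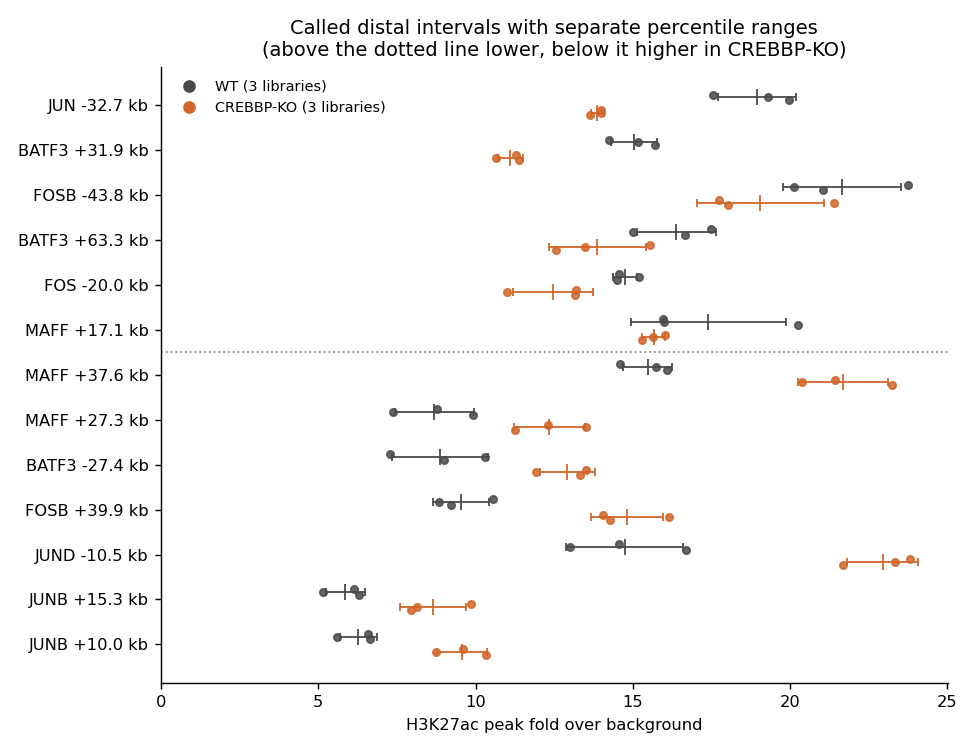
Peak folds of the 13 called distal intervals with separate percentile ranges, named by gene and distance of the summit from its start. Points are libraries, ticks the means and bars the SD of 3 libraries. In the interval 32.7 kb upstream of JUN all CREBBP-KO folds (13.6 to 14.0) lie below all WT folds (17.6 to 20.0), and in that 10.5 kb upstream of JUND they lie above them.

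The extent of the mark around the genes was also compared. The 10 windows, 1109 kb in all, held 103, 112 and 103 peaks in WT and 132, 116 and 105 in CREBBP-KO, which overlapped (two-sided exact permutation p = 0.2). The length under peaks was 236, 246 and 240 kb in WT and 260, 254 and 269 kb in CREBBP-KO, with no overlap (exact permutation p = 0.1, the smallest that 3 libraries against 3 can give). By gene, the covered length was longer in every CREBBP-KO library than in every WT library for MAFF (24.0 ± 1.17 against 30.8 ± 0.439 kb), FOSL2 (27.7 ± 0.334 against 34.4 ± 3.67 kb), FOSL1 (42.0 ± 0.840 against 45.8 ± 1.93 kb), JUNB (18.1 ± 1.26 against 21.9 ± 0.966 kb) and BATF (12.1 ± 1.01 against 14.1 ± 0.502 kb). It was shorter in every CREBBP-KO library for FOS, with 15.3, 14.7 and 15.5 kb in WT and 11.7, 12.1 and 12.5 kb in CREBBP-KO. For FOSB, JUN, JUND and BATF3 the groups overlapped. Over the 18170 protein-coding genes with a peak in such a window, the covered length was separate and longer in CREBBP-KO for 34.0% and separate and shorter for 9.81%. The CREBBP-KO lists were longer as a whole. With all lists cut to equal length, the difference in covered length over the 10 windows was 15.5 kb, beside 20.3 kb with the lists as deposited (exact permutation p = 0.1 for both), and that in peak number 2.33, beside 11.7 (p = 0.8 and 0.2).

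**Figure D4:**
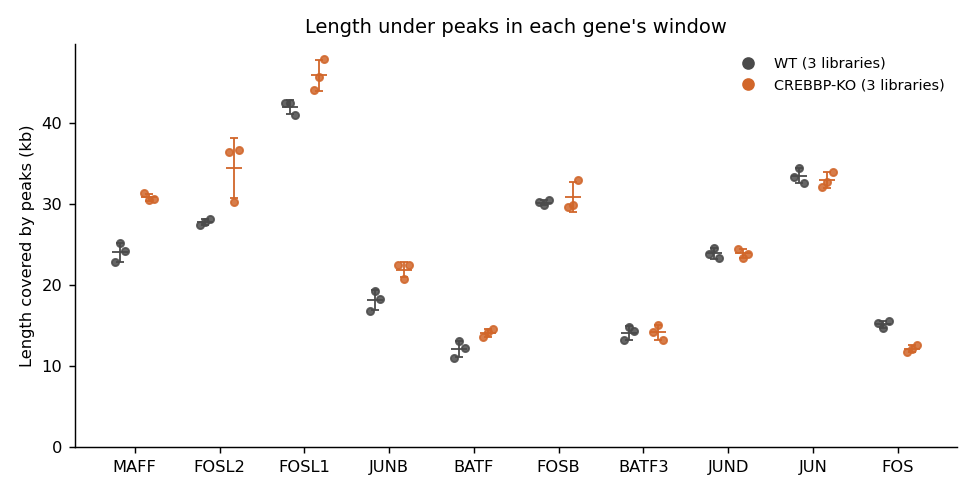
Length covered by H3K27ac peaks within the gene body and 50 kb to either side, in kb, for each AP-1 gene, ordered by the difference between groups. Points are libraries, dashes means and bars the SD of 3 libraries. MAFF and FOSL2 have the largest differences in mean length, and FOS is the gene whose 3 CREBBP-KO libraries all lie below its WT libraries.

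The pathway around AP-1 was described by 3 lists. Of 13 partners and relatives, 11 had a promoter peak in all 6 libraries, with 1 called higher and 2 lower (beside 14.4% and 14.0% of all promoters) and a median shift of 0.20, beside 0.01 over all promoters. ATF3, a stress-induced partner of JUN, had folds of 14.0, 14.7 and 15.0 in WT and of 10.5, 8.68 and 11.0 in CREBBP-KO, with no overlap (shift -1.24, SE 0.186, adjusted p = 0.000326). BATF2 fell from 7.79 ± 0.359 to 4.90 ± 0.500 (shift -1.10, adjusted p = 0.000951). NFE2L1, a cap'n'collar factor and partner of the small MAF proteins, rose from 13.2, 13.2 and 12.4 in WT to 21.9, 22.9 and 19.9 in CREBBP-KO (shift 0.70, adjusted p = 0.0135).

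Of 16 upstream kinases and serum response factors, all were tested, 3 were called higher and 1 lower (beside 14.4% and 14.0% of all promoters), with a median shift of 0.06. MAP2K2 (MEK2), a kinase that activates ERK, rose from 14.1, 10.7 and 13.4 in WT to 24.4, 28.1 and 31.0 in CREBBP-KO (shift 1.40, SE 0.203, adjusted p = 0.000263). MAP2K1 (MEK1), its paralog (9.25 ± 0.290 to 16.3 ± 2.94, adjusted p = 0.0144), and MAP2K4, a kinase that activates JNK (12.9 ± 0.939 to 22.2 ± 3.42, adjusted p = 0.00808), were called higher as well. SRF, the serum response factor that drives FOS, was called lower (25.4 ± 3.58 against 21.7 ± 1.00, shift -0.94, adjusted p = 0.00258), with overlapping folds and separate percentiles.

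Of 22 textbook targets of AP-1, 14 were tested and 8 had no promoter peak in any library, the metalloproteinases MMP1, MMP3, MMP9, MMP10 and MMP13 among them. Of the 14, 2 were called higher and 1 lower (beside the same 14.4% and 14.0%), with a median shift of -0.17. MMP14, a membrane-anchored metalloproteinase, rose from 13.8, 18.6 and 22.5 in WT to 32.7, 33.0 and 37.6 in CREBBP-KO (shift 1.13, SE 0.236, adjusted p = 0.00279), and EZR, which links actin to the membrane, from 7.69 ± 1.52 to 13.1 ± 0.838 (adjusted p = 0.0219). TIMP1, an inhibitor of metalloproteinases, was called lower (13.5 ± 3.11 against 11.3 ± 2.11, adjusted p = 0.0233), with overlapping folds. The number called in this list was 1 without WT replicate 1 or without CREBBP-KO replicate 1. On log2 fold, where 43.1% of all promoters were called higher and 3.22% lower, the calls were 7 higher and 2 lower among the partners, 8 and 0 among the kinases and 3 and 0 among the targets. Ranked by -log10 p, where the shares were 5.24% and 5.79%, they were 0 and 2, 1 and 1, and 0 and 0.

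**Figure D5:**
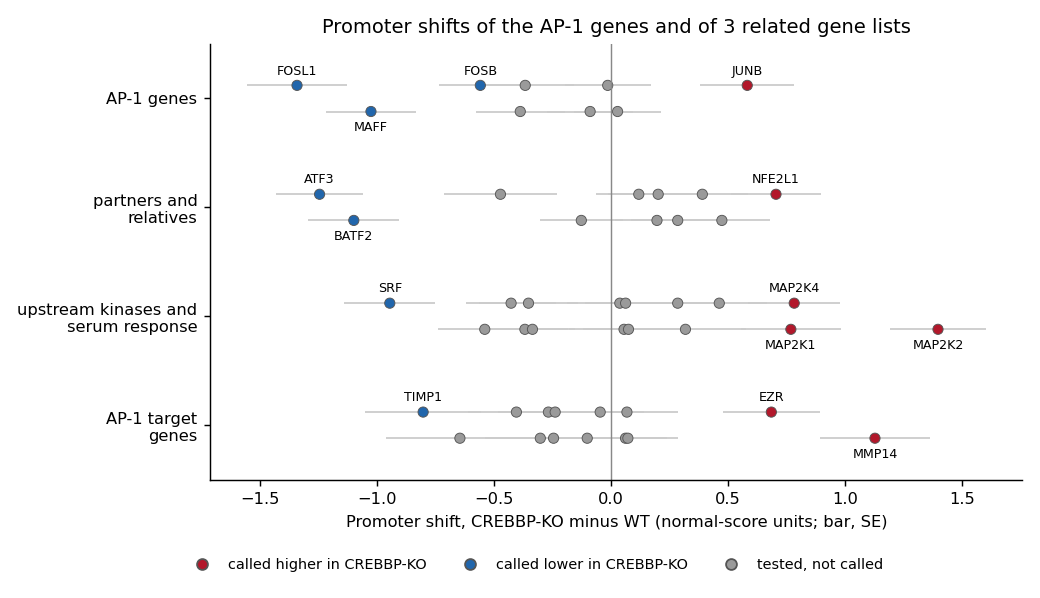
Promoter shifts (CREBBP-KO minus WT, in normal-score units) of the AP-1 genes and of the 3 related lists, with the SE as a bar. Points are genes, coloured and named where called at an adjusted p under 0.05. FOSL1 and ATF3 have the most negative shifts and MAP2K2 the most positive.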

How the data were processed

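H3K27ac ChIP-seq peak lists of 3 WT and 3 CREBBP-KO HCEC-1CT libraries were analysed, and the 2 input libraries were not used here. The authors aligned reads to hg38 (BWA, per the labels' processing notes) with the nf-core ChIP-seq pipeline and called narrow peaks per library with MACS2. The deposited fold is a linear ratio over local background, and significance was deposited as -log10 p and -log10 q (at least 1.3 in every list). The deposited summit is an offset in bases. The lists hold no reads, so neither the depth of each library nor counting error was computed from them. The authors also downsampled reads to a common maximum and called peaks again, and which lists were deposited is not given in the sources used here. The furthest peak lay within the reference's length on 24 of 24 chromosomes.

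Overlapping or touching peaks were merged. A promoter value was the highest fold of a peak overlapping 1 kb to either side of the canonical start, wherever the peak's summit lay. Promoters with a peak in all 6 libraries, and intervals with such peaks and a fold of at least 5 in all 3 libraries of a genotype, were ranked within each library and fitted as normal scores with limma 3.58.1 (lmFit, eBayes with trend) in R 4.3.3, with Benjamini-Hochberg adjustment over each table, after a test on simulated data. For peak numbers and covered length, an exact permutation of the 6 libraries was used (two-sided). Other steps used Python 3.11.15, pandas 2.3.3 and scipy 1.17.1. Every gene is named with its promoter value, and of its distal intervals the one of highest percentile, those called with separate percentile ranges (at most 2 in each direction) and, as counts, the rest, and of each other list at most 4 called genes. The members and lists were chosen with earlier results of these data known. Libraries are separate populations, but p-values do not cover differences between clones. 1 marker of the colonic epithelial list is not reported here.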

Additional observations from a re-analysis of the deposited data

Results flagged for a closer look

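A weak H3K27ac peak 17.5 kb upstream of JUND (chr19:18298429-18299512) was listed in 3 of 3 CREBBP-KO libraries and in 0 of 3 WT libraries, and so lay outside the tested intervals, which needed a peak in every library. Its folds were 3.63, 3.10 and 3.44, at percentiles of 40.6, 24.3 and 36.5 of their lists. Over all 143733 merged intervals, 2.66% had this pattern. The opposite pattern was seen 4.95 kb upstream of JUND, with folds of 3.04, 3.27 and 3.39 in WT and no peak in CREBBP-KO, as at 1.08% of all intervals.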

How the results depend on the processing

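The FOSL1 promoter, the interval upstream of JUN and that 31.9 kb downstream of BATF3 kept their calls under every alternative run. Of the 4 promoter calls, 2 held with any 1 library left out, and of 13 named distal calls, 4. Promoters called numbered 2 with the summit within 1 kb, 5 with a window of 2 kb to either side of the start and 2 to 3 without 1 library. With the summit within 1 kb, JUNB, FOSB, FOSL2 and JUND were not tested, since some of their summits lay further off. Distal intervals called numbered 10 by -log10 p, 11 without the trend, 11 with 25 kb flanks, 31 with 100 kb flanks and 8 to 15 without 1 library. On log2 fold 9 partners and 8 kinases were called, beside 43.1% of all promoters called higher and 3.22% lower. By -log10 p, where these shares were 5.24% and 5.79%, 2 kinases and 0 targets were called (2 targets at an unadjusted p under 0.05, and 1 to 4 on ranks without 1 library). With 100 kb flanks, CREBBP-KO windows held 30 more peaks (exact p = 0.1), and covered length differed by 36.1 kb, by 12.9 kb with 25 kb flanks and by 11.6 kb for peaks with a fold of at least 5. Some shifts near 0 that were not called changed sign. On log2 fold these were the promoters of FOSL2 (0.25), JUN (0.29) and JUND (0.085) and the intervals 10.9 kb downstream of FOSB (0.030), 55.2 kb downstream of FOSL2 (0.067) and 14.6 kb into BATF (0.026). By -log10 p they were FOS (-0.33) and JUN (0.064), with any protein-coding start JUN (0.0024), and among intervals, an alternative chosen after seeing the data, FOSL2 (0.065) and JUN (0.15). Without 1 library, shifts ranged from -0.046 to 0.16 (FOS), -0.19 to 0.0012 (FOSL2), -0.11 to 0.092 (JUN), -0.36 to 0.17 (BATF interval) and -0.30 to 0.12 (FOSL2 interval). The causes were not tested, except that 25 kb flanks hold fewer tested intervals (26 against 42) and 100 kb flanks more (78). Same-numbered libraries barely deviated together (correlations 0.011, 0.014 and 0.028, beside -0.025 to 0.012 for other pairs), and the main fit did not pair them. With 3 libraries per group this cannot exclude that they were processed in pairs. With a replicate block, 18 distal intervals and 3 member promoters were called, JUNB was no longer called (adjusted p = 0.0539), the FOSL1 interval was (0.0431) and the MAFF interval at 27.3 kb was not (0.0528). The lists hold no reads, so the limits that depth sets were not computed.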
